A study of Bos taurus with 8 samples.

Results

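Chromatin and DNA methylation modifiers were followed in bovine granulosa cells, the estrogen-making layer around the antrum of the follicle, when a dominant follicle passes from the plateau phase to atresia. The genes were chosen by symbol: histone demethylases (KDM), deacetylases (HDAC), sirtuins (SIRT), DNA methyltransferases (DNMT), TET oxygenases, UHRF proteins, EZH and SETD methyltransferases, and readers of the BRD and CBX families. All 59 genes whose symbol fitted were measured, of 13076 genes tested and 15229 genes with a symbol on the array. They had 92 probes, of which 85 were bright enough to be tested.

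The mural granulosa cells were scraped from single dominant follicles of Holstein ovaries from a slaughterhouse, so the stage of the cycle of each cow was unknown. Follicles had no treatment and were placed in a phase by flow cytometry of cellular DNA. Growth slows in the plateau phase, and an atretic follicle regresses. Each two-colour array held amplified RNA of 1 follicle from each phase. Atretic samples were labelled with Cy5 on 4 arrays and with Cy3 on the remaining 4. Arrays with the same position on both slides carried the same follicles in swapped dyes as far as the data show, and were averaged into 4 pairs. The labels do not tie the follicles to separate cows, so p-values measure only the spread between these samples.

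DNA methylation is laid down by DNMT3A and DNMT3B and copied after replication by DNMT1, which UHRF1 brings to newly made DNA. TET enzymes oxidise the methyl group, which starts its removal. Histone tails are methylated by enzymes such as EZH2, the catalytic subunit of Polycomb repressive complex, and demethylated by KDM enzymes, while HDAC enzymes and sirtuins remove acetyl groups. CBX and BRD proteins read these marks. Granulosa cells divide while the follicle grows, and DNMT1 and UHRF1 are most needed when DNA is copied.

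Among the 59 genes, 3 passed the study's threshold, a fold change of 1.5 up or down with an unadjusted p of 0.05, and all 3 were lower in atretic follicles. These were TET3, UHRF1 and EZH2. No gene (0 of 59) was higher past that threshold. Of all genes tested, 2.88% were lower and 2.78% were higher past it, so 5.08% of the chromatin genes against 5.66% of all genes passed in either direction, a share near the background. After Benjamini-Hochberg adjustment over all probes in limma, 0 members and 0 genes in all passed, the lowest adjusted p of any probe being 0.167. At an unadjusted p of 0.05 with no bound on the fold, 6 members passed (10.2%, against 9.57% of all genes), SIRT1, CBX1 and KDM2B beside those 3.

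**Figure D1:**
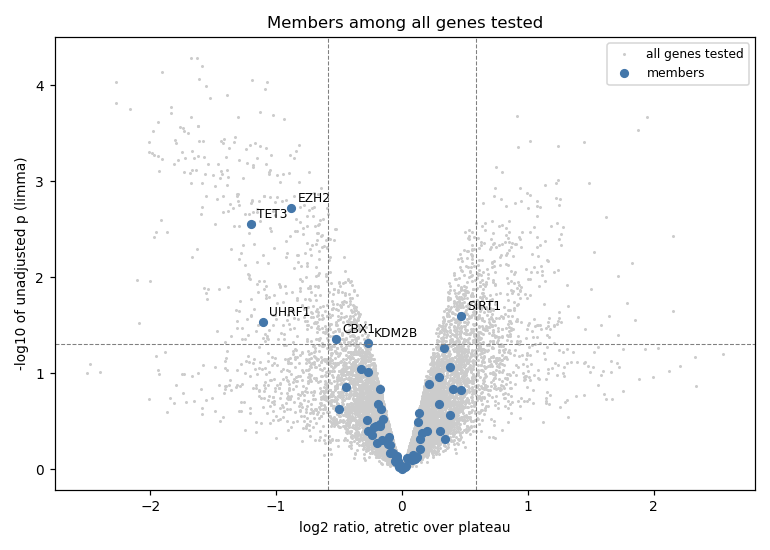
Mean log2 ratio of atretic over plateau (horizontal) against -log10 of the unadjusted p of limma (vertical) for every gene tested (grey) and the chromatin genes (blue), with dashed lines at the fold of 1.5 and the p of 0.05. Only TET3, UHRF1 and EZH2 lie past both lines, all on the lower side.

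The genes as a whole were little shifted. Their median log2 ratio was -0.04, with 25 genes above 0 and 34 below, against a median of 0.0015 over all genes tested. The median of the members was -0.10, -0.09, 0.04 and -0.11 in pairs 1 to 4. The same sign in all 4 pairs was found for 10 members (16.9%) and for 16.8% of all genes. Of these 10 members, 3 were higher and 7 lower in atretic follicles. The 95% interval of the mean lay wholly inside the fold of 1.5 for 18 members, and for the other 41, the 3 that passed among them, it reached past that fold in at least one direction.

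The pairs differed in spread. A log2 ratio of 1 or more in either direction was found for 3 members in pair 1, 5 in pair 2, 7 in pair 3 and 3 in pair 4, which is 5.08%, 8.47%, 11.9% and 5.08% of them. Over all genes these shares were 6.33%, 8.11%, 18.6% and 7.04%. Pair 3 was thus the most divergent pair, and the members spread less in it (SD 0.718) than the genes did (SD 0.958). The mean of the 9 fibroblast and stroma markers in pair 3 was -3.73, and that of the 9 granulosa markers was 2.58. Over all follicles the mean level of the stroma markers ranged from 8.33 to 9.27 (log2 intensity) in atretic and from 8.12 to 12.2 in plateau follicles, and 8 of 9 were above the negative controls on all arrays. The granulosa markers stood at 11.4 to 12.7 in atretic and 9.52 to 12.9 in plateau follicles, 7 of 9 above the negative controls on all arrays. The 4 genes listed as theca markers (CYP17A1, INSL3, LHCGR and HSD3B1) averaged 1.84 in pair 1 and -0.73 to 0.19 in the other pairs. Their levels were 7.56 to 11.4 in atretic and 7.37 to 10.9 in plateau follicles, with 2 of 4 above the negative controls on all arrays. In pair 1 LHCGR was at 3.80, HSD3B1 at 1.36 and INSL3 at 0.43. The mean thus rested on LHCGR and HSD3B1 as well as on CYP17A1, and whether those 2 read theca cells here was not tested. CYP17A1, a theca gene, was at 1.77 in pair 1 and -0.88 to -0.05 in the others. The study left 1 atretic sample with high CYP17A1 out of its qRT-PCR, as likely contaminated with theca cells. Whether a pair holds that sample, and which, is not given in the sources used here. The 8 macrophage and myeloid markers averaged 0.46, -1.16, -1.08 and -0.08, with levels of 7.33 to 8.07 in atretic and 6.97 to 9.15 in plateau follicles and 4 of 8 above the negative controls on all arrays. The 5 markers of smooth muscle and pericytes averaged 0.61, -0.23, -1.19 and -0.57, with 3 of 5 above the negative controls on all arrays. Their levels were 8.84 to 9.90 in atretic and 8.23 to 10.7 in plateau follicles. They went opposite ways in pair 3, where CNN1 was at -6.46, ACTA2 at -3.56 and TAGLN at -1.10, but MYH11 at 5.03 and RGS5 at 0.15. The part of such cells in the values below was not tested.

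**Figure D2:**
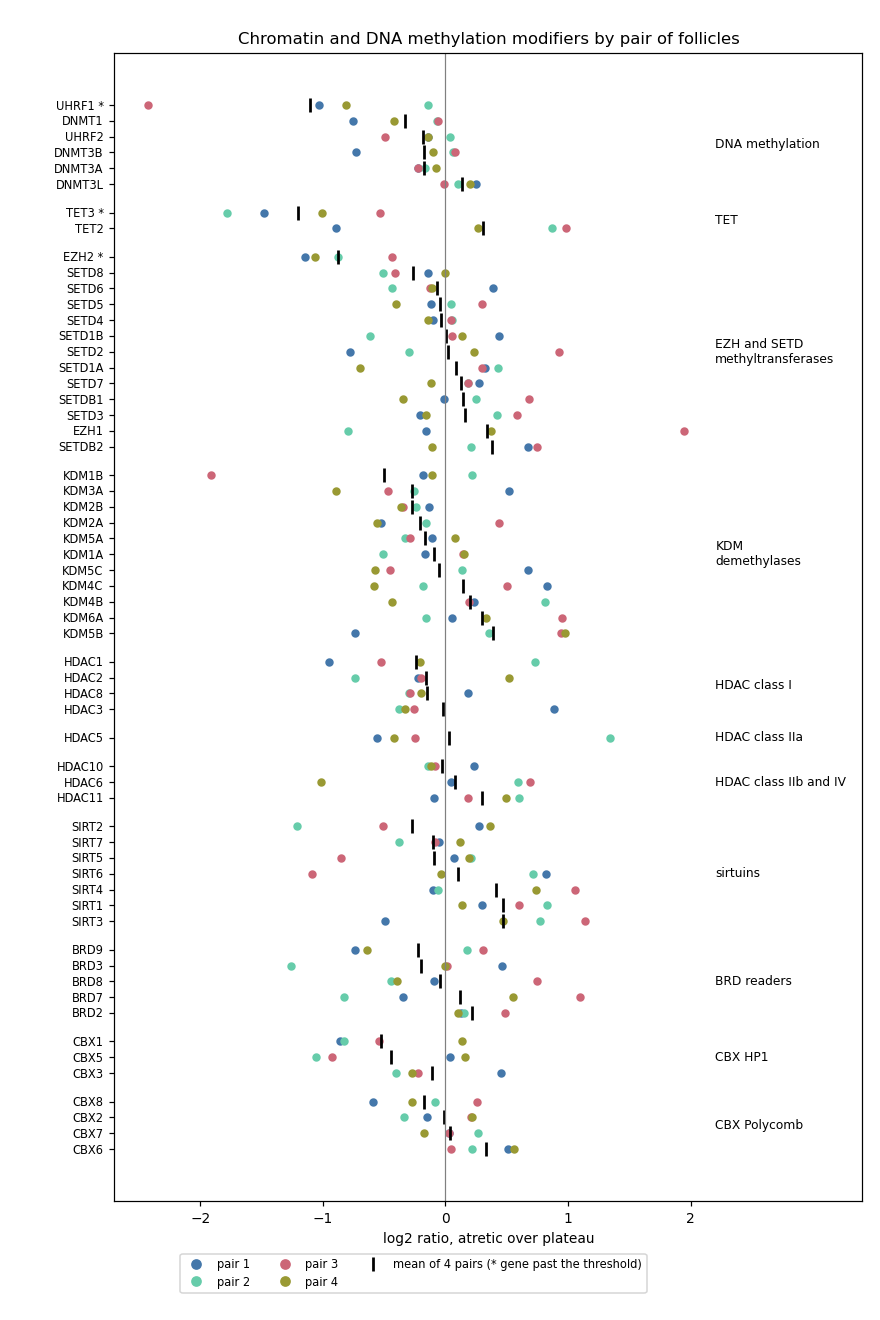
Log2 ratio of atretic over plateau for the 59 genes by role, with 1 point for each pair of follicles and a black bar at the mean of the 4 pairs. Asterisks mark the 3 genes past the study's threshold. The far points of UHRF1, KDM1B and EZH1 (-2.43, -1.91 and 1.94) are all of pair 3.

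Of the 6 genes of DNA methylation, 1 passed the threshold, beside 5.66% of all genes, and 5 had a mean below 0. UHRF1 was the one that passed. Its level in pairs 1 to 4 was 8.56, 7.18, 9.75 and 8.59 (log2 intensity) in plateau follicles and 7.53, 7.04, 7.32 and 7.77 in atretic follicles. The atretic follicles were all low and close together, while the plateau follicles ranged widely and that of pair 2 was as low as the atretic ones, so the groups overlapped. The log2 ratios were -1.03, -0.14, -2.43 and -0.81, with a mean of -1.10 ± 0.96 (SD, n = 4), a fold of 2.15 (limma, adjusted p = 0.602). The single probe was dim, above the negative controls in 7 of 8 spots of each phase. UHRF1 did not pass without pair 1 (-1.13) or pair 4 (-1.20), and stood at -0.66 without pair 3.

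The ratio of UHRF1 differed between pairs much as the mean of mitosis genes did. The 16 mitosis markers averaged -1.15, -0.39, -2.16 and -1.53 in pairs 1 to 4. Of these 16, 12 were lower past the threshold, beside 2.88% of all genes, with a list median of -1.41. Their mean level was 7.90 to 9.17 in atretic and 8.29 to 10.9 in plateau follicles, 14 of 16 above the negative controls on all arrays. UHRF1 and the mean of these markers were both nearest to 0 in pair 2 and farthest in pair 3, the most divergent pair over all genes. They had pairs 1 and 4 in opposite order. MKI67, TOP2A, PLK1 and TPX2 did not pass, and MKI67 and TOP2A were lowest in pair 4. The study ranked follicles by a score of DNA content, the shares of cells in G1, S and G2 minus the share below G1. Cells in S and G2 thus had the same weight in it as cells in G1. The study also chose BUB1, CCNB1 and PRC1 for its qRT-PCR. Lower mitosis markers may thus be partly built into the list. What the grouping adds to this was not tested. The part of dividing cells in the ratio of UHRF1 was not tested. Fewer dividing cells and less RNA per cell cannot be told apart in such samples.

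DNMT1, the maintenance methyltransferase that UHRF1 recruits, did not pass. Its log2 ratios were -0.75, -0.07, -0.06 and -0.42, with a mean of -0.33 ± 0.33 (95% interval -0.73 to 0.07, limma, adjusted p = 0.726). It was below 0 in every pair, but near 0 in pair 3, where UHRF1 was lowest. DNMT3A, a de novo methyltransferase, had the tightest values of the group: -0.23, -0.17, -0.22 and -0.08, a mean of -0.17 ± 0.069 with an interval of -0.43 to 0.08. Its level moved from 10.7 to 12.6 between atretic follicles and from 10.9 to 12.8 between plateau follicles, so both follicles of an array stood high or low together and the ratio within the array stayed small. Its other probes were at -0.24 and 0.02.

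DNMT3B, the other de novo enzyme, was at -0.73, 0.06, 0.08 and -0.10 (mean -0.17 ± 0.38), and went from -0.65 on slide 205 to 0.30 on slide 206, where the dyes were swapped. DNMT3L, a cofactor of these enzymes without activity of its own, was at 0.14 ± 0.11 on a dim probe, above the negative controls in 4 of 8 plateau spots. UHRF2, a relative of UHRF1, was bright and at -0.14, 0.04, -0.49 and -0.14 (mean -0.19 ± 0.22). UHRF1 was lower than UHRF2 in the ratio in all 4 pairs, by -0.92 ± 0.74 on average, with an exact two-sided permutation p of 0.125, the smallest that 4 pairs allow.

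Of the TET genes TET2 and TET3 were measured. TET3 had the lowest mean of all 59 genes. Its level was 12.9, 13.1, 13.4 and 13.3 in the plateau follicles of pairs 1 to 4 and 11.4, 11.3, 12.9 and 12.3 in the atretic follicles. Every atretic follicle was below every plateau follicle, a pattern found for TET3 and KDM2B among the 59 members and for 1.22% of all genes. For TET3 this was close to a tie between arrays. The highest atretic level was 12.913 (pair 3) and the lowest plateau level 12.9255 (pair 1). The log2 ratios were -1.48, -1.78, -0.53 and -1.0, with a mean of -1.20 ± 0.55 (SD, n = 4), a fold of 2.30 (limma, adjusted p = 0.265). It was lower on all 8 arrays, at -1.0 on the slide with atretic samples in Cy5 and -1.40 on the other, and passed without any single pair (-1.42 without pair 3, -1.27 to -1.01 without another). The array has a single probe for it.

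TET2 did not follow TET3. Its ratios were -0.89, 0.87, 0.98 and 0.26, with a mean of 0.31 ± 0.86, and atretic and plateau follicles overlapped. Without pair 1 it stood at 0.71 and passed the threshold, while without pair 2 or pair 3 it was at 0.12 or 0.08. Its 2 other probes were at 0.29 and -0.19. The ratio of TET3 was below that of TET2 in all 4 pairs, by -0.59, -2.65, -1.52 and -1.27 (mean -1.51 ± 0.86, exact two-sided permutation p = 0.125).

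**Figure D3:**
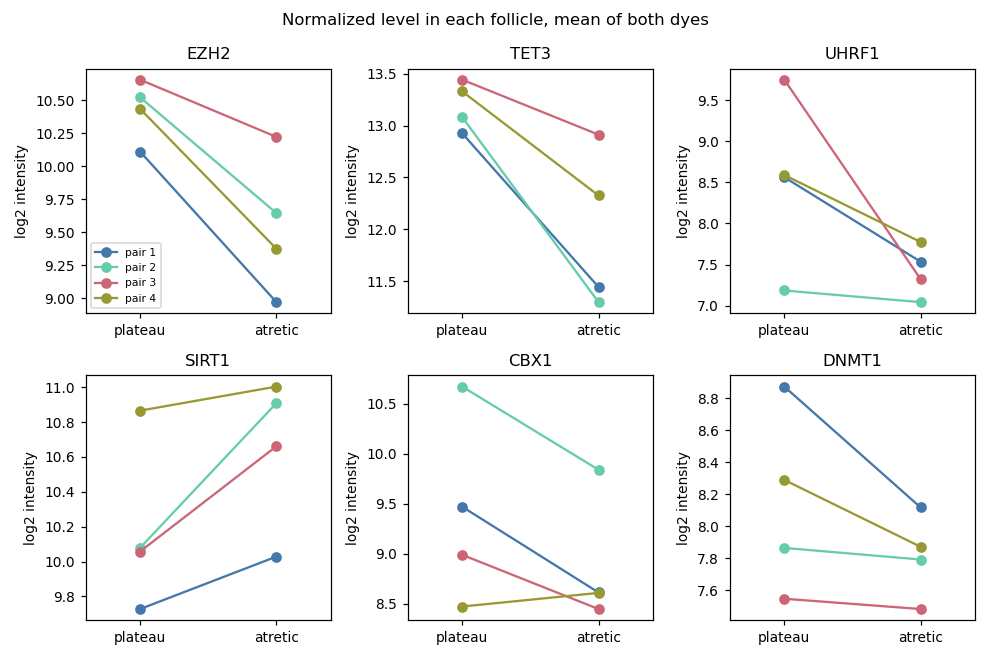
Normalized log2 intensity in the plateau and the atretic follicle of each pair, the mean of both dyes, for 6 genes, each panel with its own scale. All lines slope down for EZH2, TET3, UHRF1 and DNMT1, all slope up for SIRT1, and 3 of 4 slope down for CBX1.

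Of the 13 EZH and SETD methyltransferases, 1 passed the threshold, beside 5.66% of all genes. EZH2, which sets the repressive methyl mark of Polycomb on histone H3, was that gene. Its level was 10.1, 10.5, 10.7 and 10.4 in plateau follicles and 8.97, 9.65, 10.2 and 9.38 in atretic follicles. The plateau follicles lay close together, the atretic ones were lower and more spread, and the highest atretic follicle (pair 3) was above the lowest plateau follicle (pair 1). The ratios were -1.14, -0.88, -0.43 and -1.06, with a mean of -0.88 ± 0.32 (SD, n = 4), a fold of 1.84 (limma, adjusted p = 0.222). EZH2 was lower on all 8 arrays, at -0.67 and -1.09 in the 2 dye orientations, and passed without any single pair (-1.03 without pair 3, -0.88 to -0.79 without another).

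A second probe of EZH2 was near background, above the negative controls on 3 of 8 arrays, and gave 0.07, -0.38, -0.67 and -0.07 (mean -0.26 ± 0.33). The mean of both probes was at -0.57 and did not reach the fold of 1.5. EZH1, which can stand in for EZH2 in the complex, was at -0.16, -0.79, 1.94 and 0.37 with a mean of 0.34 ± 1.17. That mean rested on pair 3, without which it was -0.19, and another probe of EZH1 gave -0.20 ± 0.16. The ratio of EZH2 was below that of EZH1 in all 4 pairs, by -1.22 ± 0.95 (exact two-sided permutation p = 0.125). These 3 paralogue differences were among 8 compared, and after adjustment over the 8 each had p = 0.333 by the exact permutation test. UHRF1, TET3 and EZH2 had already passed the threshold on these same ratios, and 0.125 is the least this test can give. It therefore cannot decide whether paralogues differ.

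The SETD genes did not pass. Their means went from -0.27 (SETD8, now named KMT5A, which adds the single methyl group on histone H4) to 0.38 (SETDB2, of a family that methylates histone H3 in silent chromatin). SETD8 was at -0.15, -0.51 and -0.41 in pairs 1 to 3 and just below 0 in pair 4. SETD2, the enzyme that marks transcribed genes, was at 0.02 ± 0.73.

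TET3 and EZH2 shared a profile with many bright probes of the array. A group of 162 bright probes had log ratios of Cy5 over Cy3 correlated above 0.95 with one of them over the 8 arrays, and averaged -1.74, -1.86, -0.87 and -1.20 in pairs 1 to 4. Of all genes tested, 193 followed that mean at a correlation above 0.9, and 157 of the 376 genes lower past the threshold were among them. The correlation was 0.99 for TET3 and 0.96 for EZH2, and no other of the 59 genes was above 0.9. UHRF1 was at 0.62. With swapped dyes any change of 1 sign in all pairs gives a high value here, so levels of the 8 follicles were also correlated. There the mean level of the 402 tested probes above 0.9, TET3 and EZH2 among them, was the reference. The correlation was 0.97 for TET3, 0.90 for KDM2B, 0.78 for EZH2 and 0.77 for UHRF1. By this measure EZH2 did not stand apart. For TET3 and EZH2 it was not independent of the first correlation, which had chosen the reference probes. These are descriptions across arrays that share follicles. Whether the probes of TET3 and EZH2 in this profile, and that of RCOR2 below, read those transcripts was not tested, as probe sequences were not analysed here. When probes of this profile were left out, UHRF1 alone passed, as TET3 had no other probe and EZH2 was read by its dim probe.

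**Figure D4:**
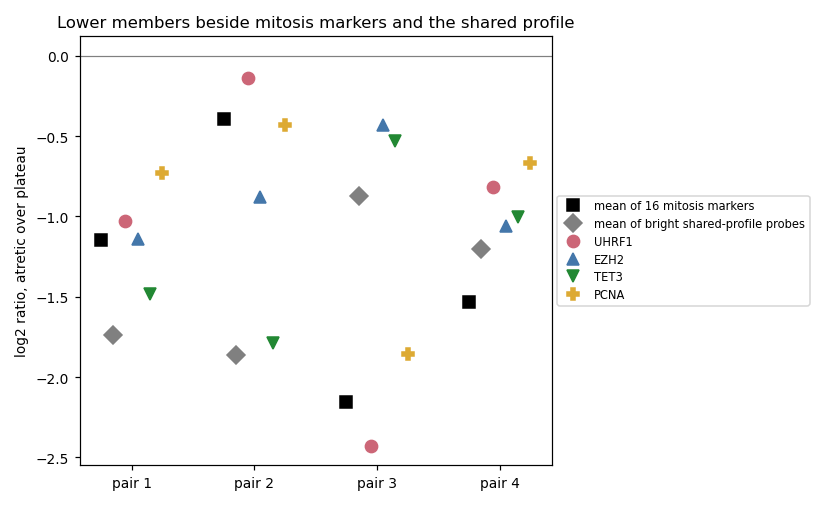
Log2 ratio of atretic over plateau in each pair for UHRF1, EZH2, TET3 and the replication clamp PCNA, beside the mean of 16 mitosis markers (black squares) and of the bright probes of the shared profile (grey diamonds). UHRF1 and PCNA are lowest in pair 3 like the mean of the mitosis markers, while EZH2 and TET3 are nearest to 0 there, like the shared profile.

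The 11 KDM demethylases had 0 genes past the threshold and a median of -0.10, with 4 above 0 and 7 below. KDM2B, which brings a Polycomb complex to CpG islands, was at -0.14, -0.24, -0.35 and -0.36. Its mean of -0.27 ± 0.11 (fold 1.21, limma, adjusted p = 0.662) was under the fold of the threshold. Every atretic level (7.05 to 7.22) was below every plateau level (7.29 to 7.57), but the probe was dim, above the negative controls in 4 of 8 atretic and 6 of 8 plateau spots, and its mean was -0.10 on slide 205 and -0.44 on slide 206. KDM1A, the demethylase LSD1, was at -0.17, -0.51, 0.15 and 0.15 (mean -0.10 ± 0.31), so it had no common direction.

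KDM5B, which removes the methyl marks of active promoters, was higher in 3 pairs (0.36, 0.94 and 0.98) and lower in pair 1 (-0.74), with a mean of 0.38 ± 0.80. Without pair 1 it was at 0.76 and passed, while without pair 3 or pair 4 it was at 0.20 or 0.19. Its other probes gave -0.22 and 0.19. KDM1B, another amine oxidase demethylase, was at -0.50 ± 0.96, a mean set by -1.91 in pair 3 (-0.03 without it), on a probe above the negative controls on 4 of 8 arrays. The other 7 KDM genes had means of -0.27 to 0.29.

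Of the HDAC genes, 0 of 8 passed. The 4 of class I were all below 0 in the mean, with a median of -0.16. HDAC1 was at -0.95, 0.73, -0.53 and -0.20 (mean -0.24 ± 0.72) and HDAC2 at -0.22, -0.73, -0.20 and 0.52 (mean -0.16 ± 0.51). These closely related deacetylases thus went opposite ways in pairs 2 and 4, and the difference of their ratios was -0.08 ± 1.05. HDAC3, the deacetylase of the NCOR complexes, was at 0.89, -0.38, -0.26 and -0.33 (mean -0.02 ± 0.61) on a probe above the negative controls on 2 of 8 arrays. HDAC5, of class IIa, was at 1.34 in pair 2 and between -0.56 and -0.25 in the others.

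The sirtuins, deacylases that use NAD, had 0 of 7 genes past the threshold and a median of 0.10. SIRT1, a nuclear deacetylase, was the one member higher at an unadjusted p of 0.05. Its plateau levels were 9.728, 10.079, 10.058 and 10.865 and its atretic levels 10.028, 10.908, 10.661 and 11.003. The atretic follicle was the higher one in each pair and on all 8 arrays, though the groups overlapped. The ratios were 0.30, 0.83, 0.60 and 0.14, with a mean of 0.47 ± 0.31 (fold 1.38, 95% interval 0.08 to 0.85, limma, adjusted p = 0.593), under the fold of the threshold. Its other probes gave 0.19 ± 0.76 and -0.09 ± 0.57.

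SIRT3, the main mitochondrial sirtuin, was at -0.49, 0.77, 1.14 and 0.47 (mean 0.47 ± 0.70), with its other probes at -0.04 and -0.05. Without pair 1 it was at 0.79 and passed, while without pair 3 it was at 0.25. SIRT4 was at 0.41 ± 0.58, and the other 4 sirtuins had means of -0.27 (SIRT2) to 0.10 (SIRT6). SIRT6 was at 0.82, 0.71, -1.09 and -0.04, so that pair 3 stood against pairs 1 and 2.

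The 12 readers had 0 genes past the threshold. All 3 HP1 genes, which bind the methyl mark of silent chromatin, had a mean below 0. CBX1 (HP1 beta) had levels of 9.47, 10.7, 8.99 and 8.47 in plateau and 8.61, 9.84, 8.45 and 8.61 in atretic follicles. Its ratios were -0.86, -0.83, -0.54 and 0.14, so pairs 1 to 3 were lower and pair 4 was not. The mean was -0.52 ± 0.46 (fold 1.44, limma, adjusted p = 0.650), and without pair 4 it was -0.74 and passed. CBX5 (HP1 alpha) was at 0.03, -1.06, -0.93 and 0.16 (mean -0.45 ± 0.63), with a second probe at -0.20. CBX3 (HP1 gamma) was at 0.46, -0.40, -0.22 and -0.27 (mean -0.11 ± 0.39).

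The 4 CBX genes of Polycomb complexes had means of -0.17 (CBX8) to 0.33 (CBX6). CBX6 was above 0 in all pairs, at 0.51, 0.21, 0.04 and 0.56 (limma, adjusted p = 0.681). Its mean was 0.06 on slide 205 and 0.60 on slide 206, so the size differed between slides, which cannot be told apart from the dye orientation. The 5 BRD genes, readers of acetylated histones, had means of -0.22 (BRD9) to 0.22 (BRD2). BRD2 was above 0 in every pair at 0.13, 0.15, 0.49 and 0.10, with an interval of -0.09 to 0.52. BRD7, a subunit of a remodelling complex, was at 1.10 in pair 3 and -0.83 in pair 2.

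Different probes of the same gene often disagreed. Of 18 members with more than 1 tested probe, 7 had all their probes on the same side of 0. The gap between the highest and the lowest probe was 0.62 for EZH2, 0.60 for KDM5B, 0.56 for SIRT1 and 0.54 for EZH1, and 0.02 for SIRT7. Brightest probes were used throughout, and the named means above are theirs.

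**Figure D5:**
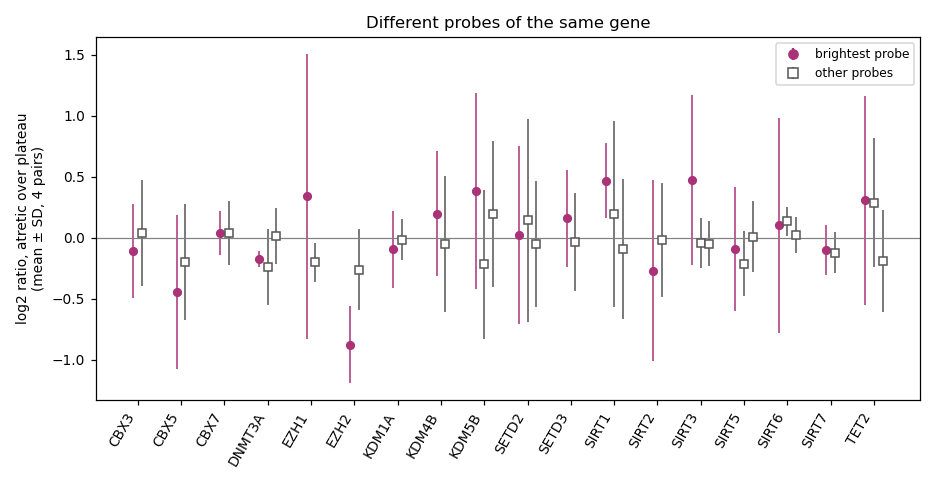
Mean and SD over 4 pairs of the log2 ratio, atretic over plateau, for each tested probe of the 18 genes with more than 1, the brightest probe as a filled circle and the others as open squares. The EZH2 probes stand at -0.88 and -0.26 and the SIRT1 probes at 0.47, 0.19 and -0.09.

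Of 127 other chromatin genes listed, 102 were measured, with a median of 0.01 over the list. The threshold was passed by 6 of them (5.88%), against 5.66% of all genes, a share near the background. The 4 lower ones were RCOR2, ASF1B, PCNA and SAP30. RCOR2, a partner of KDM1A and HDAC1 in the CoREST complex, was at -2.18, -2.22, -0.76 and -1.22 (mean -1.59 ± 0.73, -1.87 without pair 3) and followed the shared profile at 0.99. PCNA, the clamp of replicating polymerases that also holds DNMT1, was at -0.73, -0.43, -1.86 and -0.67 (mean -0.92 ± 0.64). ASF1B, a histone chaperone of replication, was at -0.60, -0.24, -2.45 and -0.93 (mean -1.06 ± 0.97). Like UHRF1, both were farthest from 0 in pair 3, the most divergent pair over all genes, and nearest in pair 2. ASF1B did not pass without pair 1 (-1.21) or pair 4 (-1.10), and was at -0.59 without pair 3. SAP30, a subunit of the SIN3 deacetylase complex, was at -0.83 ± 0.60 and did not pass without pair 2 (-0.85) or pair 3 (-0.55). PCNA was at -0.61 without pair 3.

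The 2 higher genes were PRMT2, an arginine methyltransferase (1.24 ± 1.08), and PCGF2, a Polycomb subunit (0.62 ± 0.35). PRMT2 did not pass without pair 2 (0.90) or pair 3 (0.98), nor PCGF2 without pair 3 (0.47). Of 21 Polycomb partners measured, PCGF2 was the one that passed, beside 5.66% of all genes. The core partners of EZH2 were at 0.11 ± 0.41 for EED and -0.84 ± 1.14 for SUZ12, whose value in pair 3 was -2.29 and in pair 2 was 0.39. Of 9 genes of replication-coupled chromatin, 2 (PCNA and ASF1B) were lower past the threshold, beside 2.88% of all genes, and the median of the 9 was -0.30. Differences between such small groups were not tested.

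Median spot intensities were 162 to 283 in Cy5 and 205 to 374 in Cy3, over local backgrounds of 39 to 71 and 21 to 31. Of the 59 genes, 50 were above the 95th percentile of the negative controls on all 8 arrays, with 0 saturated and 0 marked spots. The number of pairs limits the precision.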

How the data were processed

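RNA of granulosa cells was amplified, labelled and hybridised to EmbryoGENE bovine arrays. The authors deposited median spot and local background intensities of both channels. They also deposited log2 ratios of Cy5 over Cy3, background-subtracted, loess and quantile normalized, with column medians of -0.0289 to -0.00543, which correlated at 0.999775 or more with ratios computed here by background subtraction, itself an alternative to the main correction, and served as a further alternative.

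Intensities were corrected in limma 3.58.1 (R 4.3.3) by normexp (offset 50). Loess (span 0.3) was applied to each array, followed by quantile normalization across arrays. Ratios were turned to atretic over plateau. Arrays of equal position on slides 205 and 206 correlated at 0.759 to 0.865 after removal of the slide means, and unequal ones at -0.487 to -0.0327, so equal ones were averaged into 4 pairs. The labels do not state this pairing, and dye orientation and slide cannot be told apart. The 34016 of 43794 probes that reached a log2 intensity of 7 on average were tested with lmFit and eBayes, with Benjamini-Hochberg adjustment over all. The brightest tested probe stood for its gene. Symbols came from the platform annotation, which named a gene for 21790 probes. Probes without a symbol stood for no gene, but took part in the fits, the adjustment and the search for the shared profile.

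The genes and lists were chosen with earlier results of these data known. Values by pair are given for genes past the threshold, for the core enzymes and readers, and for up to 3 genes per role with 1 sign in all pairs. Other genes are given by range, and any other value was chosen after it was seen. Alternatives changed background, normalization, filter, probe, dye handling, variance model and pairs. On simulated data, 43 of 50 probes with a log2 change of -1 and 40 of 50 with a change of 1 passed the threshold, beside 717 of 33816 unchanged probes. Changes were placed only in probes at a mean log2 intensity of 8 or more, with noise independent between probes. These rates therefore do not describe dimmer members such as UHRF1 (7.97) and KDM2B (7.29), nor probes that move together.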

Additional observations from a re-analysis of the deposited data

Results flagged for a closer look

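Among the 21 chromatin genes chosen by rule for values by pair, 2 had 1 pair far from the other pairs by Dixon's criterion, which chance meets in about 1 of 20 groups. Other members were not examined in this way. Among them HDAC5 was at 1.34 in pair 2 and -0.56 to -0.25 in the others, and SIRT5 at -0.85 in pair 3 and 0.07 to 0.21 in the others. BRD2 stood at 0.49 in pair 3 and 0.10 to 0.15 in the others. HDAC3 stood at 0.89 in pair 1 and at -0.38 to -0.26 in the others, on a probe above the negative controls on 2 of 8 arrays.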

How the results depend on the processing

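The count of 3 lower and 0 higher members was the same under the other background corrections, normalizations, marked-spot weights, variance model and the deposited table, and with the pair as a replicate block over 8 arrays (3 lower, 0 higher, with or without a dye term). Leaving out control spots before the quantiles, chosen after seeing the data, also gave 3 and 0. At a mean log2 intensity of 8 or more, or for probes above the negative controls on every array, 2 were lower, UHRF1 being filtered out, and with the mean of all probes 2 (TET3 and UHRF1). Without the shared-profile probes 1 was lower, with EZH2 at -0.26, and EZH2 was at -0.57 with the mean of its probes. At an adjusted p of 0.05, 0 were lower. With no bound on the fold, 5 were lower and 1 higher. On slide 206 alone 4 were lower (CBX1 added) and 2 were higher (CBX6 and SIRT3). There 12 related chromatin genes passed, and the median of the members was 0.0463. Over all genes, 642 were lower and 544 higher of 13064 on that slide, against 376 and 364 of 13076 in the main setting. With the pair as a replicate block, 594 to 608 of all genes were lower and 614 to 615 higher. HDAC2 turned to 0.14 on slide 205 alone, and on slide 206 alone DNMT3B turned to 0.30, HDAC3 to 0.0069 and KDM1A to 0.0828. Without 1 pair, 2 to 3 members were lower and 0 to 3 higher (KDM5B, SIRT3 and TET2 without pair 1). Of all 13076 genes, 337 to 449 were lower and 291 to 542 higher without 1 pair. In these runs 4 to 8 related genes passed and the median of the members was -0.08 to -0.0062. The ratios then ranged from -0.258 to 0.0113 for DNMT3B, -0.19 to 0.72 for EZH1, -0.385 to 0.0324 for HDAC2, -0.32 to 0.10 for HDAC3 and -0.177 to 0.0433 for KDM1A. Over 21 genes and all alternatives, 432 of 451 values kept their direction and side of the threshold. The cause was not tested where values changed. Dim probes, such as those of UHRF1, KDM2B and HDAC3, limit what can be read.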

Other observations

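A pair of demethylases carry older symbols on the array and so fell outside the choice by symbol. JMJD2A, now KDM4A, was at 0.32, 0.89, 0.44 and -0.34 in pairs 1 to 4, with a mean of 0.33 ± 0.51. JMJD5, now KDM8, was at 0.92, -0.28, -0.65 and -0.24, with a mean of -0.06 ± 0.68. Neither passed the threshold.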
